A study of Bactrocera dorsalis with 16 samples.

Results

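MicroRNAs (miRNAs) of the growing ovary were compared between day 5 and day 1 after adult emergence in females of the oriental fruit fly, Bactrocera dorsalis, a tephritid pest of fruit. The comparison used 4 of the 16 small RNA libraries of the study, 2 from ovaries of day 5 females and 2 from ovaries of day 1 females, chosen by the tissue and age in the sample labels. The other 12 libraries came from ovaries of day 9 and day 13 and from fat body of all these ages. Both groups were untreated flies of a laboratory colony kept on a diet of yeast extract and sugar, with no strain named and no statement of how many females went into a library. The 2 libraries of a day are called biological replicates without further detail, so the p-values below measure only the spread between these samples. Values are the normalised signal of each mature sequence as deposited. Of 747 distinct sequences, the 224 with a value of at least 10 in 2 or more of the 4 libraries were kept, and they held 99.8% to 99.89% of the signal of each library. Just inside this limit lay PC-5p-107605_77, with a second highest value of 10.06, and just outside it PC-3p-73319_129, with 9.84. Of the kept sequences 166 were named after known miRNAs, and the other 58 were candidates predicted by the authors' software, whose names start with PC.

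A miRNA is cut from a hairpin precursor, and usually 1 of its arms is loaded into an Argonaute protein while the other is degraded. The loaded strand finds messenger RNAs by pairing with its seed, bases 2 to 8, so that miRNAs with the same seed can share targets. The fly ovary is made of strings of egg chambers in which germline cells, nurse cells and oocyte, are wrapped in somatic follicle cells. In fruit flies of this kind the chambers grow and take up yolk during the first days of adult life. In Drosophila, miRNAs act in germline stem cells, in follicle cells and in the border cells, a group of follicle cells that migrates through the egg chamber.

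The sequences that carry the results are printed from the deposited table, in its DNA letters from 5′ to 3′, with the seed in capitals. The prefix of a name stands for the species in which the miRNA was described, bdo being the oriental fruit fly, and R+1 or R-1 marks bases added or lost at the 3′ end. The first set was higher at day 5. In miR-304_R-1, the main strand of the hairpin whose other arm is also shown, the difference missed the test threshold on the deposited values.
dvi-miR-989-3p_R+1: tGTGATGTgacgtagtggaaca
bdo-miR-375_R-1: tTTGTTCGtttggcttaagtt
bdo-miR-304_R-1: tAATCTCAatttgtaactgtga
bdo-mir-304-p3: cACGTTGCatatggagattgcc
bdo-miR-263a_R-3: aATGGCACtggaagaattcac
bdo-miR-994_R+1: tAAGGAAAtagtagccgtgatt

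The second set was lower at day 5, apart from bdo-miR-87_R-2, which is shown because it has the seed of api-miR-87a.
bdo-miR-958: tGAGATTCttctaatctactgg
bdo-miR-281: aAGAGAGCtatccatcgacagtc
bdo-mir-281-p3: cTGTCATGgaattgctcttttt
api-miR-87a: gTGAGCAAagtttcaggtgtgc
bdo-miR-87_R-2: tTGAGCAAaatttcaggtgtgt
dme-miR-31b-5p_R+1_1ss15AC/dme-miR-31a-5p: tGGCAAGAtgtcggcatagctga
bdo-miR-276a: tAGGAACTtcataccgtgctct
bdo-mir-276b-p3: tAGGAACTtaataccgtgctct
bdo-miR-316: tGTCTTTTtccgcttactgtcg

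The last set shows 2 families in which the parts of single members were apart between the days, the K-box family, named after the messenger RNA motif its seed pairs with, and the miR-92 family.
bdo-miR-2a-2_L+2R-2/bdo-miR-2c_L+2R-1/bdo-miR-2a_R-1: tATCACAGccagctttgatgagc
bdo-miR-2b_R-3: tATCACAGccagctttgagga
bdo-miR-13a: tATCACAGccattttgacgagtt
bdo-miR-11: cATCACAGtctgagttcttgct
bdo-miR-6: tATCACAGtggctgttccttat
ame-miR-92a-3p_L+1/aga-miR-92a: tATTGCACttgtcccggcctat
bdo-miR-92b: aATTGCACtagtcccggcctgc
PC-3p-204_49387: tATTGCACaatccccggcctga

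The summed signal was 446486.6 and 434088.7 in the day 5 libraries, against 517249.1 and 547028.1 in the day 1 libraries. The reads behind it, recovered from the spacing of the values, were 193980 and 383806 at day 5, against 720256 and 1111282 at day 1. A value of 10 therefore rested on 4.34 and 8.84 reads at day 5 and on 13.9 and 20.3 reads at day 1. Depth and age go together here, and their parts in the results cannot be told apart. Replicate libraries correlated at r = 0.951 at day 5 and r = 0.953 at day 1 over the 224 sequences, against 0.869 to 0.917 between libraries of different days. The median absolute log2 difference between replicates was 0.59 at day 5 and 0.52 at day 1. On the recovered reads replicates differed beyond counting error, with a chi-square per degree of freedom of 33.5 at day 5 and 96.87 at day 1. Because a few sequences hold most of the signal, and because the totals differ between days, shares of the library total are given beside the deposited values.

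The ovary at day 5 had far more miR-989 than at day 1, together with more miR-375, miR-263a, miR-994 and the minor strand of miR-304. It had less of miR-31 and of the most abundant sequence, miR-276a, and much less miR-958 and miR-281. The differences of miR-989, miR-31 and miR-958 passed the test below with any single library left out. Those of miR-375, miR-263a, miR-994, the miR-304 strand, miR-276a and both main strands of miR-281 did not. On the shares miR-276a did not pass. With limma, 29 of 224 sequences (12.9%) passed an adjusted p of 0.05 and are referred to as called, 14 of them higher at day 5 (6.25%) and 15 lower (6.7%). With each library scaled to its total, the split was 22 higher and 8 lower, and the median change of all sequences was 0.20 on the log2 scale, against -0.06 with the deposited values. In all 29 called sequences the days did not overlap, so leaving out a library could not turn their direction. The other alternatives did not turn it either, which adds little support to the calls. On the shares 22 of the 29 were also called. The number of calls rests on the assumed spread: it was 8 without day 1 replicate 2, 17 without day 5 replicate 1, and 0 (40 at an unadjusted p under 0.05) with the spread taken from all 16 libraries by limma, against 30 by edgeR and 34 by DESeq2 on the recovered reads. Fold changes are of value + 1, which understates the change of low sequences. At the depth of these libraries, 6 of the 29 called sequences reached a value of 10 only in the group in which they were higher. These were api-miR-87a, ame-miR-281-3p_R-3_1ss20TA and dme-miR-316-5p_R-1_1ss20GC at day 1, and dvi-miR-263a-3p, bdo-miR-11595_R+2 and PC-3p-34306_346 at day 5. The filter kept them through that group, so that they had to differ, and their values are given as a description. In such bulk tissue, fewer cells of a type and less RNA per cell cannot be told apart.

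**Figure D1:**
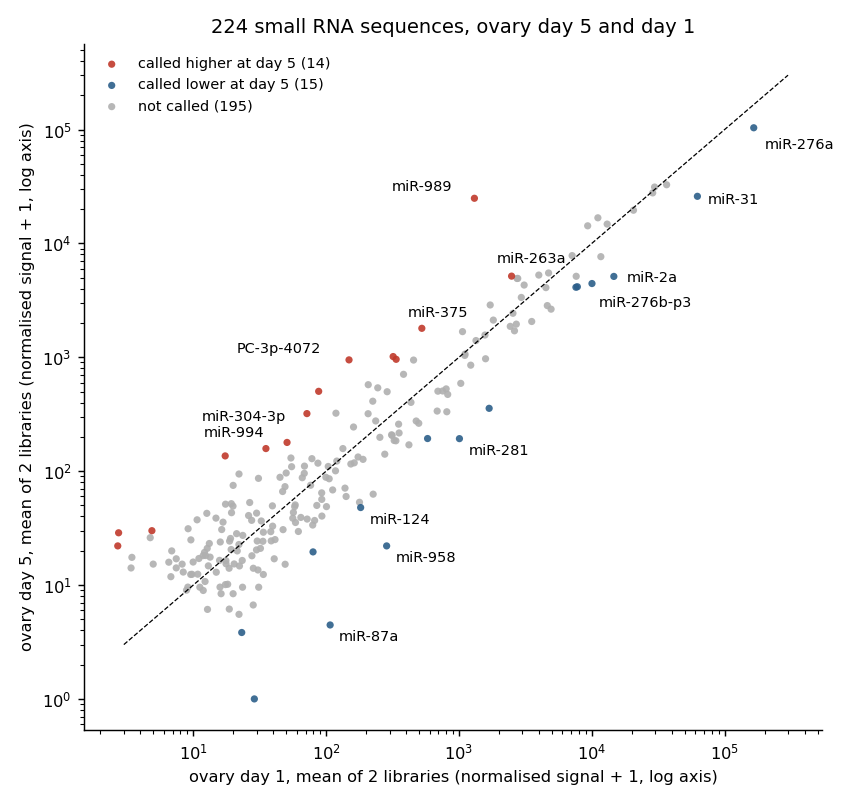
Mean normalised signal + 1 of 224 sequences in 2 day 5 ovary libraries (vertical, log axis) against 2 day 1 ovary libraries (horizontal, log axis), with the dashed line marking equal values. The 14 sequences called higher lie above the line, with miR-989 farthest from it among the abundant ones, and the 15 called lower, among them miR-276a and miR-31 at the top right, lie below it.

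The miRNAs known from the Drosophila ovary moved in both directions. In Drosophila, miR-989 is needed for the migration of the border cells. Here dvi-miR-989-3p_R+1 had 21167.03 and 28623.01 in the day 5 libraries, against 1465.57 and 1145.35 in the day 1 libraries. Both day 5 libraries lay far above both day 1 libraries, and miR-989 moved to place 6 in abundance at day 5, against place 38 at day 1. The fold was 19 (log2 4.25, SE 0.27, adjusted p = 9.92e-09, limma), and miR-989 took 4.74% and 6.59% of the day 5 libraries, against 0.283% and 0.209% of the day 1 libraries. It was also called with any single library left out.

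The miRNAs miR-994 and miR-318 lie in 1 cluster in Drosophila and are abundant in its ovary. In these libraries both were low. For bdo-miR-994_R+1 the values were 145.03 and 210.41 at day 5, against 48.85 and 50.7 at day 1. It rose 3.46-fold (log2 1.79, SE 0.56, adjusted p = 0.0438), with no overlap between the days, but with any 1 of the 4 libraries left out it was not called (adjusted p = 0.0642 to 0.299). For bdo-miR-318 the values were 36.83 and 47.51 at day 5, against 21.55 and 15.26 at day 1, a log2 change of 1.16 (SE 0.67, adjusted p = 0.267) that was not called although the days did not overlap. Among all sequences the days failed to overlap in 132 of 224 (58.9%), with day 5 above in 63 (28.1%) and below in 69 (30.8%), so that separation alone sets no sequence apart.

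The fly ovary list, of miRNAs with known roles or high levels in the Drosophila ovary, had 24 of its 44 sequences kept. Of these, 2 rose (miR-989 and miR-994) and 3 fell, the main form of miR-31 and both 5p forms of miR-316, against 6.25% higher and 6.7% lower over all 224 sequences. With so few members these counts are a description. The list was chosen with earlier results of these data known, so its direction and its median are no independent evidence. The median change was -0.52 on the log2 scale, against -0.06 over all 224 sequences, and it was -0.24 on the shares. In Drosophila miR-184 acts in female germline development, and bdo-miR-184 had 28526.57 and 26983.88 at day 5, against 26069.26 and 31380.1 at day 1. Its day 5 values lay between the day 1 values (log2 -0.04, SE 0.19, adjusted p = 0.901). For bdo-miR-7_R-3, whose Drosophila counterpart acts in germline stem cell division, the values were 6609.09 and 9007.82 at day 5, against 6684.17 and 7534.08 at day 1, again overlapping. The abundant bdo-miR-999 overlapped as well, with 34633.82 and 30814.16 at day 5, against 34206.79 and 38906.79 at day 1. The SEs of these 3 log2 changes were 0.18 to 0.26, and their p-values do not show that the levels were equal.

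The miRNA miR-375 is known in mammals from the insulin-secreting cells of the pancreas. In the ovary bdo-miR-375_R-1 had 1984.34 and 1605.19 at day 5, against 722.73 and 325.84 at day 1. It rose 3.67-fold (log2 1.88, SE 0.43, adjusted p = 0.00809), with all day 5 values above all day 1 values. Its longer form dme-miR-375-3p_R+1 (39.13 and 44.12 at day 5, against 12.93 and 10.34 at day 1) and its other arm bdo-mir-375-p5 (27.62 and 32.81 at day 5, against 7.9 and 8.37 at day 1) changed by 1.76 and 1.77 on the log2 scale and were not called (adjusted p = 0.107 and 0.117). All of these sequences separated the days in the same direction. Without day 1 replicate 2, the library with the lowest value, miR-375 was not called (adjusted p = 0.146).

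In Drosophila miR-283, miR-304 and miR-12 come from 1 cluster. Their main strands did not pass the test. The values of bdo-miR-12_R+1 were 11984.29 and 16550.73 at day 5, against 8300.61 and 10311.06 at day 1 (log2 0.61, SE 0.24, adjusted p = 0.108), and those of bdo-miR-304_R-1 were 17520.64 and 16023.59 at day 5, against 11207.33 and 11004.08 at day 1 (log2 0.59, SE 0.21, adjusted p = 0.0761). Both were separated between the days and were called on the shares (adjusted p = 0.0344 and 0.0196), while bdo-miR-283 overlapped, with 1903.77 and 2963.77 at day 5, against 2684.01 and 2409.8 at day 1. The strand from the other arm, bdo-mir-304-p3, had 285.45 and 352.94 at day 5, against 78.31 and 63 at day 1, and rose 4.47-fold (log2 2.16, SE 0.52, adjusted p = 0.0116). Its call was lost without day 5 replicate 2 (adjusted p = 0.0717) and without day 1 replicate 2 (adjusted p = 0.146).

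A second cluster, miR-275 and miR-305, moved in parallel without passing the test on the deposited values. In the mosquito Aedes aegypti miR-275 is needed for blood digestion and egg development, and in Drosophila miR-305 acts in the intestinal stem cells. The values of bdo-miR-275 were 4647.77 and 5185.47 at day 5, against 2298.22 and 3175.17 at day 1, and those of bdo-miR-305 were 4242.61 and 5607.41 at day 5, against 2219.2 and 3317.91 at day 1. Neither overlapped between the days, and the log2 changes were 0.86 (SE 0.29, adjusted p = 0.0626) and 0.85 (SE 0.31, adjusted p = 0.0792). On the shares both were called (adjusted p = 0.0277 and 0.0344).

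The miRNA miR-263a protects the cells of sensory bristles from death in Drosophila. Here bdo-miR-263a_R-3 had 4472.82 and 5841.57 at day 5, against 2576.25 and 2398.97 at day 1. It rose 2.06-fold (log2 1.04, SE 0.29, adjusted p = 0.0297), with the days apart. The other arm, dvi-miR-263a-3p, had 16.11 and 26.02 at day 5, against 1.44 and 1.97 at day 1, a 7.99-fold difference (log2 3.0, SE 0.83, adjusted p = 0.0295). It was kept only through its day 5 values and rested on 30 reads over both day 5 libraries and 6 over both day 1 libraries. The main strand was not called without day 5 replicate 2, day 1 replicate 1 or day 1 replicate 2 (adjusted p = 0.207, 0.0986 and 0.222), and the other arm was not called with any 1 of the libraries left out (adjusted p = 0.0655 to 0.0956).

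**Figure D2:**
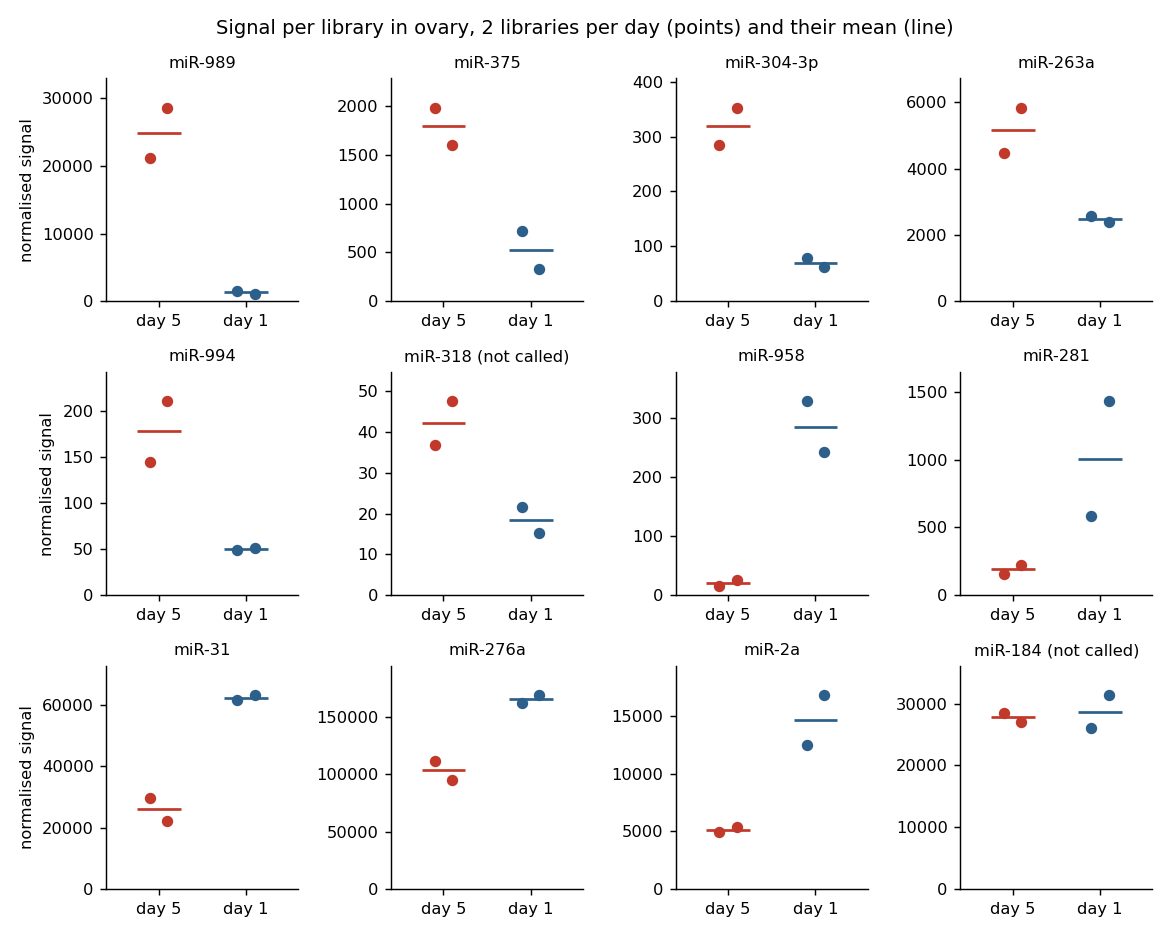
Normalised signal of 12 miRNAs in each ovary library, with 2 points per day and a line at their mean, day 5 left of day 1. The day 5 points of miR-989, miR-375, miR-304-3p, miR-263a, miR-994 and miR-318 lie above those of day 1, those of miR-958, miR-281, miR-31, miR-276a and miR-2a lie below them, and those of miR-184 overlap with them.

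Of the sequences that fell, miR-31 and miR-276a held the largest part of the library. In Drosophila miR-31a acts in the patterning of the embryo. The main form, dme-miR-31b-5p_R+1_1ss15AC/dme-miR-31a-5p, had 29573.98 and 22235.06 at day 5, against 61504.54 and 63174.14 at day 1. It fell 2.43-fold (log2 -1.28, SE 0.18, adjusted p = 0.000282), to 6.62% and 5.12% of the day 5 libraries, against 11.9% and 11.5% of the day 1 libraries. It was also called on the shares and with any single library left out. A longer form with the same seed, dwi-miR-31a_R+1_1ss23AT, went the same way, with 32.23 and 72.4 at day 5, against 153.74 and 200.82 at day 1 (log2 -1.84, SE 0.59, adjusted p = 0.0512).

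The miRNA miR-276a acts in olfactory memory in Drosophila, and miR-276 in the synchrony of egg hatching in the migratory locust. It was the most abundant sequence in all 4 libraries, at 111998.79 and 95126.27 for bdo-miR-276a at day 5, against 161857.22 and 169169.76 at day 1. It fell 1.6-fold (log2 -0.68, SE 0.13, adjusted p = 0.00292), to 25.1% and 21.9% of the day 5 libraries, against 31.3% and 30.9% of the day 1 libraries. On these shares the adjusted p was 0.0501, so that it was not called, and the call was also lost without day 1 replicate 1 (0.138) and without day 1 replicate 2 (0.237). Its close relative bdo-mir-276b-p3 differs by 1 base outside the seed (C10A, with the base of miR-276a first and positions counted from 1 at the 5′ end). It had 4913.65 and 3966.59 at day 5, against 9661.65 and 10389.07 at day 1, and fell 2.27-fold (log2 -1.18, SE 0.25, adjusted p = 0.00578). That call held on the shares (adjusted p = 0.0335) but not without day 1 replicate 2 (adjusted p = 0.101). Reads of these sequences differ by a single base, and how the authors assigned such reads is not given in the sources used here.

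Sequences of both arms of miR-281 fell. In the silkworm this miRNA targets the ecdysone receptor in the Malpighian tubules. The 5p strand bdo-miR-281 had 158.84 and 225.11 at day 5, against 583.36 and 1430.33 at day 1, and the 3p strand bdo-mir-281-p3 had 200.28 and 510.18 at day 5, against 1173.9 and 2197.67 at day 1. The days did not overlap for either strand, but the day 1 libraries differed strongly, with replicate 2 the higher. The folds were 4.81 (log2 -2.27, SE 0.50, adjusted p = 0.00626) and 5.01 (log2 -2.32, SE 0.48, adjusted p = 0.00469). Without day 1 replicate 2 neither was called (adjusted p = 0.237 and 0.0842). A shorter 3p form, ame-miR-281-3p_R-3_1ss20TA, had no read in either day 5 library, against 26.58 and 29.04 at day 1. Set against a floor of 3 reads in each day 5 library, it was at least 5.4-fold lower at day 5, but it was kept only through its day 1 values. This floor and the interval in the next paragraph cover counting error only.

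Among the less abundant sequences miR-958 fell strongly, and miR-87a was lower. The values of bdo-miR-958 were 16.11 and 26.02 at day 5, against 327.6 and 241.18 at day 1, and it fell 13.1-fold (log2 -3.71, SE 0.59, adjusted p = 0.000732). In Drosophila miR-87 acts in the regrowth of dendrites. Here api-miR-87a had 6.91 and 0 at day 5, against 72.56 and 139.78 at day 1, with 3 reads over both day 5 libraries and 385 over both day 1 libraries. The ratio of its read rates, day 5 over day 1, was 0.0202 (exact 95% interval 0.00415 to 0.0596), and limma called it (log2 -5.18, SE 0.91, adjusted p = 0.00146). It was kept only through its day 1 values, so that this p is no support for a difference, whereas miR-958 passed 10 in all 4 libraries and was also called on the shares and with any single library left out. The other sequence with this seed, bdo-miR-87_R-2, differs from api-miR-87a by G1T, G10A and C22T, with the base of api-miR-87a first. It was low at both ages, with 9.21 and 14.71 at day 5, against 10.06 and 17.72 at day 1.

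The miRNAs miR-316, miR-965 and miR-124 also fell on the deposited values, but none of their calls held on the shares. For bdo-miR-316 the values were 3593.45 and 4726.2 at day 5, against 7225.86 and 8336.85 at day 1 (log2 -0.91, SE 0.27, adjusted p = 0.0368, and 0.133 on the shares). Both day 5 values lay below both day 1 values, and its 5p form dme-miR-316-5p_R-1_1ss20GC (0 and 5.66 at day 5, against 26.58 and 17.72 at day 1) was called lower as well (log2 -3.14, adjusted p = 0.0438, and 0.0732 on the shares), though it was kept only through its day 1 values. For dqu-miR-965-3p the values were 17.27 and 19.8 at day 5, against 76.15 and 81.21 at day 1 (log2 -2.03, SE 0.63, adjusted p = 0.0438, and 0.0779 on the shares). The neural miRNA bdo-miR-124 is described with the markers below. Leaving out 1 library ended the call of bdo-miR-316 in 3 of 4 cases, of its 5p form in 1 and of miR-965 in 4, with highest adjusted p-values of 0.299, 0.269 and 0.442.

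Calls in the K-box family were all of miR-2. In Drosophila, miR-2, miR-13, miR-11 and miR-6 share this seed and repress the cell death genes reaper, grim and sickle. Among the 13 kept sequences with the seed ATCACAG, the largest part of the signal was miR-11 at day 5 and miR-2 at day 1. The 6 miR-2 sequences summed to 9610.0 and 9712.5 at day 5, against 21227.8 and 25285.7 at day 1, or 33.9% and 32.8% of the family at day 5, against 53.1% and 59.6% at day 1. The main miR-2 sequence, bdo-miR-2a-2_L+2R-2/bdo-miR-2c_L+2R-1/bdo-miR-2a_R-1, had 4907.79 and 5346.27 at day 5, against 12490.53 and 16803.66 at day 1, and fell 2.83-fold (log2 -1.50, SE 0.25, adjusted p = 0.00086). It was also called on the shares and with any single library left out. The table gives this sequence the names of several miR-2 genes, whose reads cannot be told apart. Lower too were bdo-miR-2b_R-3, with 4419.02 and 3818.7 at day 5, against 7873.7 and 7306.68 at day 1 (log2 -0.88, SE 0.26, adjusted p = 0.0368), and the longer form dme-miR-2a-3p_R+2 (log2 -1.63, adjusted p = 0.0368). Neither of these 2 held on the shares (adjusted p = 0.133 and 0.0847), and leaving out 1 library ended the call in 4 and 3 of 4 cases (highest adjusted p = 0.251 and 0.295).

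The other K-box miRNAs were not called. The values of bdo-miR-11 were 14463.56 and 15084.68 at day 5, against 13893.5 and 12196.67 at day 1 (log2 0.18, SE 0.21, adjusted p = 0.618), and it took 51.1% and 51.0% of the family at day 5, against 34.8% and 28.8% at day 1. The values of bdo-miR-13a were 3867.38 and 4308.78 at day 5, against 4480.78 and 4537.58 at day 1 (log2 -0.14, SE 0.27, adjusted p = 0.771). The rare bdo-miR-6 had 59.85 and 40.72 at day 5, against 18.68 and 14.27 at day 1 (log2 1.54, SE 0.67, adjusted p = 0.141). The sequences printed above share the seed and differ in the bases after it: miR-2a and miR-2b have their first 18 bases in common, while miR-11 and miR-2a differ at 9 of 22 positions. The whole family changed by -0.51 on the log2 scale (SE 0.13, adjusted p = 0.0533) and was not called. Of the 17 kept sequences of the K-box list, which includes the other arms, 0 rose and 3 fell, with a median of -0.38, against 6.25% and 6.7% over all 224 sequences, and a difference in change between miR-2 and miR-11 was not tested.

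Summing the kept sequences with 1 seed gave 167 seed groups, of which 13 (7.78%) were called, 6 higher (3.59%) and 7 lower (4.19%). With library totals as the scale 23 were called, 16 higher and 7 lower, and without day 5 replicate 1 there were 5. The miR-276 group fell by 0.71 (SE 0.11, adjusted p = 0.00604) and the miR-31 group by 1.28 (SE 0.16, adjusted p = 0.00321) on the log2 scale, and the groups of miR-989, miR-375 and miR-263a were called higher. The miR-276 group was not called by edgeR, by DESeq2, with no filter, with no trend or with the spread from all 16 libraries (highest adjusted p = 0.555). The miR-375 group was called in 15 of 20 alternatives and lost without day 5 replicate 1 or day 1 replicate 2 (highest adjusted p = 0.157). The miR-263a group was called in 11 of 20 and in 1 of the 4 fits that left out a library (highest adjusted p = 0.369), while the groups of miR-989 and miR-31 were called in 19 and 18 of 20. The group of miR-87a and miR-87 was lower by 2.81 (SE 0.61, adjusted p = 0.0435). This difference comes from api-miR-87a, which was kept only through its day 1 values, so this p is no support for a fall. The miR-92 family, which in Drosophila includes the ovarian miR-310 cluster, was not called in its sum (log2 -0.07, SE 0.26, adjusted p = 0.895). Within it, ame-miR-92a-3p_L+1/aga-miR-92a made up 34.5% and 36.0% at day 5, against 53.7% and 47.3% at day 1, and the candidate PC-3p-204_49387 made up 37.0% and 31.5% at day 5, against 20.5% and 20.9% at day 1. The shares of each were apart between the days, but neither sequence was called by itself (log2 -0.59, SE 0.34, and log2 0.65, SE 0.37, both with an adjusted p of 0.264). The remaining main member, bdo-miR-92b, had 1466.38 and 1335.96 at day 5, against 1413.85 and 1269.38 at day 1.

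**Figure D3:**
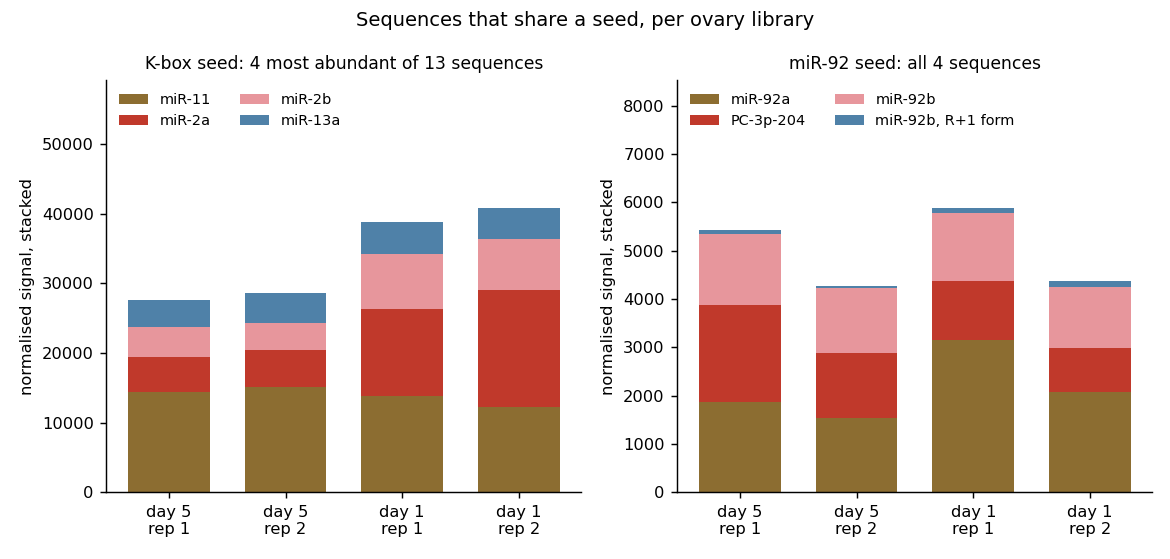
Stacked normalised signal of sequences with the K-box seed (left, the 4 most abundant of 13) and with the miR-92 seed (right, all 4) in each ovary library, day 5 left of day 1. The miR-2a and miR-2b parts of the bar are smaller at day 5 while that of miR-11 is not, and within the miR-92 seed the PC-3p-204 part is larger and the miR-92a part smaller at day 5.

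The let-7 complex, let-7, miR-100 and miR-125 from 1 transcript, acts in the steroid-linked timing of development in Drosophila. Its sequences named for the oriental fruit fly were not called. The values of bdo-let-7 were 5858.63 and 4423.03 at day 5, against 8006.06 and 7248.6 at day 1 (log2 -0.58, SE 0.26, adjusted p = 0.151), those of bdo-miR-125 were 1929.09 and 1805.41 at day 5, against 2874.39 and 1987.99 at day 1 (log2 -0.36, SE 0.33, adjusted p = 0.51), and those of bdo-miR-100 were 966.85 and 1106.32 at day 5, against 1252.2 and 957.33 at day 1, which overlap. Of the 10 kept sequences of the list, 1 rose and 0 fell, with a median of 0.03, against 6.25% and 6.7% over all 224 sequences.

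The 1 called higher was dpu-miR-100_R-2_1ss16AT, a form with 1 base changed from a miRNA of another species, so that no let-7 complex sequence named for the oriental fruit fly was called. It had 1240.79 and 786.19 at day 5, against 340.53 and 296.3 at day 1 (log2 1.63, SE 0.43, adjusted p = 0.019). Similar forms, pte-let-7-5p_1ss12GA (386.74 and 256.78 at day 5, against 124.29 and 110.74 at day 1) and pte-miR-10-5p_1ss12TA (41.44 and 33.94 at day 5, against 15.8 and 11.82 at day 1), were also separated between the days and not called (adjusted p = 0.0756 and 0.194). The ratio of the miR-100 form to the let-7 form was 3.21 and 3.06 at day 5, against 2.74 and 2.68 at day 1. Together these 3 forms took 0.374% and 0.248% of the library at day 5, against 0.0929% and 0.0766% at day 1, highest in the library with the fewest reads and lowest in the one with the most. Whether they match the fruit fly genome or are RNA of another animal was not tested, so the call is not a result about the let-7 complex of the fly, and their sequences are not shown. The call of the miR-100 form was lost without day 5 replicate 1 (adjusted p = 0.189) or day 1 replicate 2 (adjusted p = 0.136).

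Of the 58 predicted candidates 6 (10.3%) were called, all higher, against 6.25% higher and 12.9% in both directions over all 224 sequences. Whether these are miRNAs or pieces of other RNA was not tested. The most abundant was PC-3p-4072_4097, with 1284.52 and 610.85 at day 5, against 168.83 and 126.49 at day 1, which rose 6.03-fold (log2 2.59, SE 0.49, adjusted p = 0.00213) and was also called with any single library left out. PC-3p-2481_6747 had 1263.81 and 653.84 at day 5, against 344.12 and 326.82 at day 1 (log2 1.44, adjusted p = 0.0438), and PC-3p-8533_1829 had 745.85 and 256.78 at day 5, against 98.42 and 75.31 at day 1 (log2 2.33, adjusted p = 0.0117). Day 5 replicate 1 was the highest library for each of them. Also higher were PC-3p-38123_304 (log2 3.11), PC-3p-34306_346 (log2 3.52, kept only through its day 5 values) and PC-3p-27304_459 (log2 2.26), and PC-3p-1179_12950 (log2 1.58, adjusted p = 0.053) was not called. Without day 1 replicate 2 the adjusted p was 0.241 for PC-3p-38123_304, 0.187 for PC-3p-34306_346, 0.53 for PC-3p-27304_459, 0.205 for PC-3p-2481_6747 and 0.0842 for PC-3p-8533_1829, and without day 5 replicate 1 all of these but PC-3p-38123_304 were lost too (0.165 to 0.342). Without day 1 replicate 1 the call of PC-3p-2481_6747 was lost as well (0.0986).

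The called candidates were 18 to 20 bases long, shorter than the 21 to 23 bases of the known miRNAs printed above. Over all kept sequences of 18 and 19 bases, 36 in number, 5 rose and 0 fell, with a median of 0.57. Over the 188 of 20 bases or longer 9 rose and 15 fell, with a median of -0.16. All 224 sequences had 6.25% higher and 6.7% lower, with a median of -0.06. Sequences of 18 and 19 bases took 2.37% and 1.28% of the signal at day 5, against 1.13% and 0.527% at day 1, in the reverse order of the reads per library. The part of depth in these candidates was not tested. A named but little described miRNA, bdo-miR-11595_R+2, had 18.42 and 39.59 at day 5, against 4.31 and 3.45 at day 1 (log2 2.53, SE 0.79, adjusted p = 0.0438). It was kept only through its day 5 values and was not called with any 1 of the libraries left out (adjusted p = 0.0607 to 0.241).

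The miR-309 cluster, which clears maternal messenger RNA in the early Drosophila embryo, was low at both ages. It had 5 of 28 sequences kept, with a median of 1.42. Of these 0 rose and 0 fell, against 6.25% and 6.7% over all 224 sequences. The values of bdo-miR-286 were 52.95 and 48.64 at day 5, against 17.96 and 18.7 at day 1 (log2 1.42, SE 0.66, adjusted p = 0.164), and those of bdo-miR-4_R-2 were 18.42 and 15.84 at day 5, against 15.81 and 5.91 at day 1 (log2 0.75, SE 0.78, adjusted p = 0.589). In 4 of the 5 sequences the days did not overlap and day 5 was the higher, which over all sequences held for 63 of 224 (28.1%). Among the 4, dme-miR-6-3p_R-2_1ss1TC (18.42 and 11.31 at day 5, against 8.62 and 2.46 at day 1) had to separate. It was kept only through its day 5 values, as were 13 of the 63. All 28 sequences of the list together took 0.0495% and 0.0344% of the library at day 5, against 0.0188% and 0.0111% at day 1.

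Among miRNAs of growth and insulin signalling, 19 of 25 sequences were kept. Of these 0 rose and 2 fell, both of the miR-276 family, against 6.25% and 6.7% over all 224 sequences. The median of the list was 0.09. In Drosophila miR-8 acts on growth and insulin signalling, and bdo-miR-8_R+1 overlapped between the days, with 26565.26 and 35902.34 at day 5, against 22733.64 and 36603.3 at day 1. Its other arm dme-miR-8-5p was separated, with 1012.89 and 875.56 at day 5, against 417.4 and 490.72 at day 1 (log2 1.06, SE 0.40, adjusted p = 0.0954, and 0.0452 on the shares). The miRNA miR-14, which acts in fat metabolism in Drosophila, had values of 8471.42 and 6818.93 for bdo-miR-14 at day 5, against 13714.61 and 9667.76 at day 1 (log2 -0.60, SE 0.25, adjusted p = 0.125). The miRNA miR-278 acts in energy balance in Drosophila, and dme-miR-278-3p had 2723.28 and 1398.18 at day 5, against 3578.44 and 3475.9 at day 1 (log2 -0.85, SE 0.35, adjusted p = 0.115). The growth miRNA bantam was in no entry of the table analysed here under that name.

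**Figure D4:**
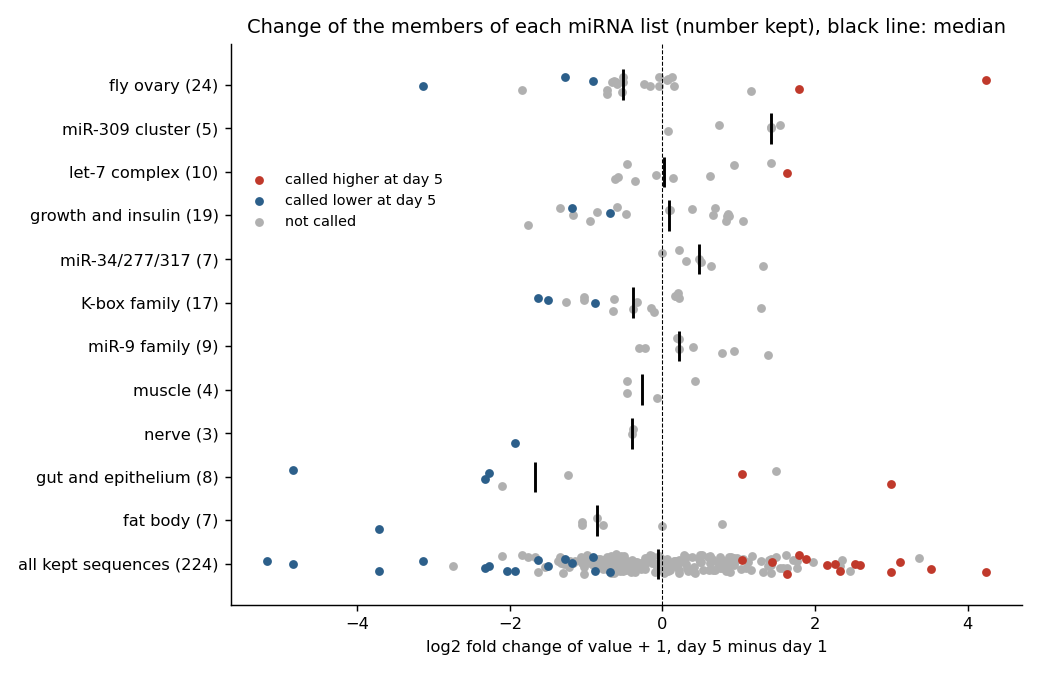
Log2 fold change of value + 1, day 5 minus day 1, of each kept member of 11 miRNA lists and of all 224 kept sequences, with a black line at each median. The medians of the gut and epithelium list (-1.67), the fat body list (-0.85) and the fly ovary list (-0.52) lie left of that of all sequences (-0.06), while miR-989 of the fly ovary list lies farthest to the right. The lists were chosen with earlier results of these data known.

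Markers of tissues that a dissected ovary could carry along were read as a check of the label. The ovarian markers miR-989, miR-318, miR-994, miR-92a, miR-92b and miR-7 had signal in every library. That of bdo-miR-318 was low, with 36.83 and 47.51 at day 5, against 21.55 and 15.26 at day 1. Signal above 0 is a weak check of the label, and no other tissue was set beside it here. The muscle marker miR-1 was abundant too, with 19900.92 and 19196.63 for bdo-miR-1 at day 5, against 20885.87 and 20281.52 at day 1. All 6 muscle sequences took 4.87% and 4.97% of the signal at day 5, against 4.51% and 4.32% at day 1. The 4 kept ones, all of miR-1, had a median of -0.27. Of these 0 rose and 0 fell, against 6.25% and 6.7% over all 224 sequences. The other muscle marker, aae-miR-133, was near 0, with 2.3 and 0 at day 5, against 0 and 0.49 at day 1. Of 3 kept nerve markers, 0 rose and 1 fell, with a median of -0.39: bdo-miR-124 had 62.15 and 31.67 at day 5, against 125 and 236.75 at day 1 (log2 -1.93, SE 0.61, adjusted p = 0.0438, and 0.093 on the shares). The nerve markers bdo-miR-137 (292.36 and 222.85 at day 5, against 250.01 and 450.36 at day 1) and bdo-miR-1000 (18.42 and 12.44 at day 5, against 12.21 and 32.49 at day 1) overlapped between the days. Day 1 replicate 2 was the highest library for each of these 3, and without it miR-124 was not called (adjusted p = 0.53), nor was it without day 1 replicate 1 (0.116) or day 5 replicate 2 (0.238).

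The gut and epithelium list moved both ways. Of its 8 kept sequences, 2 rose, both of miR-263a, and 3 fell, all of miR-281, with a median of -1.67. Over all 224 sequences 6.25% were called higher and 6.7% lower, and 2 of these 5 calls are of sequences kept only through the higher day. The uncalled bdo-miR-263b and dme-miR-281-3p_1ss18CT were also kept only through day 1, so they had to be lower at day 5. The median lies between the changes of these sequences and is no support for a fall of the list. Of the fat body list 7 of 19 sequences were kept, and 0 rose and 1 fell, miR-958, with a median of -0.85. Several fat body markers had been chosen from fat body and ovary libraries of this study, so their direction is no independent evidence. All 19 sequences of the list summed to 1.07% and 0.834% of the signal at day 5, against 1.2% and 1.17% at day 1. The values of bdo-miR-252 were 402.85 and 269.23 at day 5, against 632.21 and 736.33 at day 1 (log2 -1.05, SE 0.43, adjusted p = 0.121), while dme-miR-274-5p_R-1 went the other way with 122.01 and 133.48 at day 5, against 55.32 and 98.93 at day 1 (log2 0.78, adjusted p = 0.395). The part of such tissues in the change of miR-958, miR-281 and miR-124 was not tested.

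Both arms of a hairpin were kept for 30 base names, and the minor arm, the one with less signal, often made up more of the hairpin at day 5. Its share was higher in both day 5 libraries than in both day 1 libraries in 14 of 30 hairpins (46.7%) and lower in 1 (3.33%), miR-190, with overlap in 15. The minor arms of miR-263a and miR-306, both among the 14, were kept only through day 5, and that of miR-190 only through day 1. The filter favoured the direction seen in these hairpins. Among the 22 with a minor arm of at least 10 in all 4 libraries, it was higher in 12, lower in 0 and overlapping in 10. The median change of the ratio of minor to major arm was 0.54 on the log2 scale. By single hairpins limma on the log ratio, a test chosen after the data were seen, called 0 of 30 (6 at an unadjusted p under 0.05).

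For miR-304 the minor arm took 1.6% and 2.16% of the hairpin at day 5, against 0.694% and 0.569% at day 1 (log2 ratio change 1.57, SE 0.43, adjusted p = 0.11). For miR-996, a relative of miR-279, it took 25.1% and 26.5% at day 5, against 11.2% and 7.94% at day 1 (1.72, SE 0.44, adjusted p = 0.11). For miR-8 it took 3.67% and 2.38% at day 5, against 1.8% and 1.32% at day 1 (0.96, SE 0.46, adjusted p = 0.255). These are the strands that usually are degraded, and in each of these cases both day 5 libraries lay above both day 1 libraries. The day 5 libraries were the shallowest, and the part of depth in these shares was not tested. The sequences named as arms of miR-6497, 18 bases each, overlap by 9 bases and are counted here only as the table names them.

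**Figure D5:**
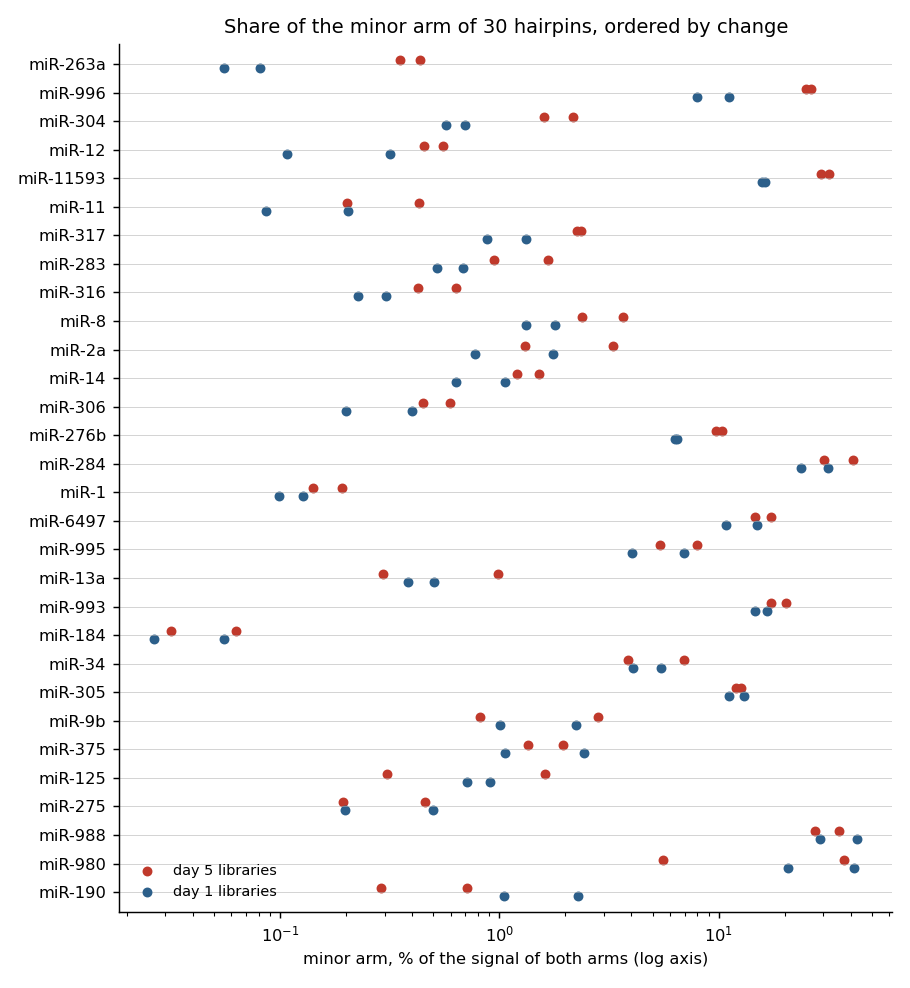
Share of the minor arm in the signal of both arms, in percent on a log axis, for 30 hairpins in 2 day 5 and 2 day 1 ovary libraries, ordered by the change of the log ratio. In 14 hairpins, among them miR-263a, miR-996 and miR-304 at the top, both day 5 points lie right of both day 1 points, and in 1, miR-190 at the bottom, both lie left of them. The minor arms of miR-263a and miR-306 were kept only through day 5 and that of miR-190 only through day 1, which favours these directions.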

How the data were processed

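Per the labels' protocols, total RNA was extracted with Trizol, small RNA libraries were made with a TruSeq kit and sequenced on an Illumina instrument, and the ACGT101-miR program removed adapters, low complexity reads, structural RNA and repeats. The deposited table holds a normalised signal per mature sequence, marked as norm per the file headers. For the aligner, build and scaling method, nothing is given in the sources used here. Low values were multiples of 1 step per library, and 93.5% to 95.5% came out as whole reads within a tolerance of 0.1. With no molecular identifiers, reads do not stand for separate molecules.

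Entries with the same sequence were summed (788 entries, 747 sequences), because their reads were shared out over the entries. Values of the 4 ovary libraries were taken as log2(value + 1) and fitted with limma 3.58.1 (R 4.3.3) with an intensity trend, on 2 residual and 14.1 prior degrees of freedom, with Benjamini-Hochberg adjustment over all 224 sequences. An exact permutation test of 2 libraries against 2 cannot go below a two-sided p of 0.333 and was not used. Seed groups are sums of the kept sequences with the same bases 2 to 8. Arms were sorted by shared stretches of sequence within a base name. Alternatives included edgeR 4.0.16, which called 30 sequences on the recovered reads, and DESeq2 1.42.0. The fit was tested on simulated data.

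Named sequences were the 12 called ones with the largest change in each direction and a higher mean of at least 100 (filled up with sequences whose days did not overlap), the 15 most abundant, members of the lists, and sequences with the seed of one of these. Which list members to name, and the low called sequences, were chosen after their values were seen. The members, the lists and the rules were chosen with earlier results of these data known. Sequences are credited to the deposited table, since no genome was used here, and coordinates are therefore not given.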

Additional observations from a re-analysis of the deposited data

How the results depend on the processing

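With 2 libraries per day and few reads at day 5, the number of calls depends on the spread that is assumed, and the causes below were not tested. Against 29 called sequences there were 5 with no filter on low values, 4 with no trend and 0 with the spread taken from all 16 libraries (40 at an unadjusted p under 0.05), and between 8 (without day 1 replicate 2) and 29 when 1 library was left out, with 17 without day 5 replicate 1. The lone library of a day is then assumed to vary like the others. The other alternatives, apart from the replicate block given below, gave 22 to 40, with 30 by edgeR and 34 by DESeq2. Against 13 called seed groups there were 3 with no filter, 23 with library totals as the scale, 1 with no trend, 0 with the spread from all 16 libraries (29 unadjusted), 23 with that from the 12 libraries outside day 9, 25 by DESeq2 and 31 with sequences of 20 bases or longer only, an alternative added after the data were seen. Leaving out 1 library gave 5 to 22 seed groups, and 0 to 1 hairpins.

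Replicate numbers of the days may share nothing but the number. The replicate differences of the days correlated at 0.437 over 224 sequences, and with a replicate block 82 sequences, the 29 included, and 52 seed groups were called, with 0 hairpins.

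No called sequence changed sign under any alternative, which leaving out a library could not bring about, since the days did not overlap in any of them. Sequences near no change did. With library totals as the scale the log2 change was 0.17 for bdo-miR-283, 0.069 for bdo-miR-87_R-2, 0.13 for bdo-miR-13a, 0.19 for bdo-miR-100, 0.11 for bdo-miR-999, 0.23 for bdo-miR-184 and 0.20 for bdo-miR-1. It was 0.0018 for bdo-miR-184 with TMM factors and -0.0024 for bdo-miR-92b with totals that leave out the 5 most abundant sequences. Leaving out 1 library gave -0.42 to 0.22 for bdo-miR-283, -0.56 to 0.20 for bdo-miR-87_R-2, -0.82 to 0.030 for bdo-miR-137, -1.05 to 0.29 for bdo-miR-1000, -0.0145 to 0.14 for bdo-miR-92b, -0.28 to 0.11 for bdo-miR-100, -0.25 to 0.44 for bdo-miR-8_R+1, -0.18 to 0.090 for bdo-miR-184 and -0.10 to 0.34 for bdo-miR-7_R-3. Of 219 recomputed list medians 23 moved beyond the margin set for them, most of them when a library was left out.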

Other observations

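The miR-34, miR-277 and miR-317 list, 1 cluster in Drosophila, had 7 of 10 sequences kept, with a median log2 change of 0.48. Of these 0 were called, against 12.9% over all 224 sequences. The values of dvi-miR-34-5p, a miRNA that Drosophila eggs inherit from the mother, were 4746.76 and 3866.48 at day 5, against 3525.28 and 2660.82 at day 1 (log2 0.48, SE 0.29, adjusted p = 0.286), apart between the days. The values of dme-miR-317-3p_R-2_2ss21CT22AC were 5340.68 and 5653.79 at day 5, against 5097.18 and 4350.54 at day 1 (log2 0.22, SE 0.27, adjusted p = 0.618). As a share of the library the list took 2.66% and 2.7% at day 5, against 2.01% and 1.62% at day 1.

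The miR-9 family, with miR-79 and miR-306, had 9 of 16 sequences kept, with a median of 0.22. Of these 0 were called, against 12.9% over all 224 sequences. Its most abundant member, bdo-miR-9c, had 5488 and 5050.85 at day 5, against 4275.31 and 3701.33 at day 1 (log2 0.40, SE 0.27, adjusted p = 0.344). The family took 2.67% and 2.56% of the library at day 5, against 1.98% and 1.52% at day 1, and on the shares its median was 0.50. The medians of 0.22 and 0.50 differ only through the scale, since the totals were smaller at day 5. Over all sequences the median was -0.06 on the deposited values and 0.20 on the shares. Which scale is closer to the tissue was not tested.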
